A study of Mus musculus with 22 samples.

Results

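This report compares the earliest and the latest germ cell population that were sorted from the testes of euploid mice: pre-mid-pachytene spermatocytes, which are in the first part of meiotic prophase, and spermatids, the haploid cells that follow meiosis. The comparison uses 6 of the 22 arrays of the series, 3 of each population, and asks for the net change of each transcript over the whole of meiosis. Genes were taken into it when their mean level was at least 4 (log2) in either population, which held for 9266 of the 15780 named genes. The values are the log2 intensities that the authors computed with GCRMA from Affymetrix arrays, and a difference of 1 is a fold of 2.

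The euploid males carried the genotype label t121/D17 and are described as siblings of Ts43H trisomic males, in which the segment of chromosome 17 nearest the centromere is present in an added copy. All males were adults of 2 months. Tubule cells were brought into suspension and sorted by fluorescence, and biotinylated RNA was made from 20 to 30 ng of total RNA in 2 rounds of amplification. The 3 arrays each of trisomic pre-mid-pachytene spermatocytes and spermatids served as a second set of arrays for the same stage difference, and the 2 euploid arrays of mid-late-pachytene spermatocytes show the path between the ends. Whether each array had an animal of its own is not stated in the labels, so the p-values measure only the spread between arrays. The number of arrays limits the precision. This spread was pooled within the groups of the whole series, with liver, trisomic and mid-late-pachytene arrays included. For a single gene it can therefore differ from the spread of the arrays compared.

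In meiotic prophase the homologous chromosomes are broken, paired along the synaptonemal complex and recombined, while the X and Y chromosomes are gathered in the sex body and silenced. The spermatid then builds the acrosome, a secretory vesicle for the encounter with the egg, and a flagellum around a microtubule axoneme, and replaces histones by transition proteins and protamines. Many messages for these structures are made long before the protein and are stored, so that transcript and protein need not follow each other.

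The labelled populations were first set against their markers. Of 17 markers of early meiotic prophase on the array, 12 fell from pre-mid-pachytene spermatocytes to spermatids, 3 rose and 2 did not pass the test. Their median level was 12.67 ± 0.27 in pre-mid-pachytene spermatocytes and 11.31 ± 0.14 in spermatids (SD, n = 3). Of 15 round spermatid markers, 14 rose, with a median level of 10.11 ± 0.69 in pre-mid-pachytene spermatocytes and 13.10 ± 0.13 in spermatids. Of 7 tested spermatogonial markers 6 fell and 1 rose, with a median difference of -5.26. Values under 3 are taken here as background, the range where most hepatocyte markers lay on the germ cell arrays. The array held 17 spermatogonial markers, of which 8 lay in this range before mid-pachytene, 14 at the mid-late stage and 12 in spermatids. Markers of spermatogonia, early prophase and round spermatids thus moved with the labels. Of 15 pachytene spermatocyte markers, however, 9 rose, 2 fell and 4 did not pass. Their median level was 11.55 ± 0.14 in pre-mid-pachytene spermatocytes and 13.44 ± 0.08 in spermatids. It was highest, at 14.53 ± 0.29, on the 2 mid-late-pachytene arrays. Between the 2 ends these markers thus went against the labels. There were 2 further departures that touch the results below.

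The first of these 2 is that markers of elongating spermatids, which should lie at the end of the path, were already high at its start. Their median was 13.83 ± 0.13 at the start, 10.39 ± 1.04 on the 2 mid-late-pachytene arrays and 14.50 ± 0.19 at the end. In 15 of 16 the mid-late-pachytene mean lay at least 1 below both ends. The second concerns Sertoli cells, which nurse the germ cells. Their 17 markers had a median of 6.78 ± 0.26 in pre-mid-pachytene spermatocytes and 3.51 ± 0.29 in spermatids, and 9 of the 10 that could be tested fell. Their summed level (log2) ran from 14.77 to 15.39 in pre-mid-pachytene spermatocytes and from 10.89 to 11.72 in spermatids. Clu, a secreted chaperone, stood at 13.14, 13.69 and 13.22 and then at 9.75, 8.59 and 9.63. Of the 17 markers 4 had a mean under 3 in pre-mid-pachytene spermatocytes, 8 at the mid-late stage and 6 in spermatids. Amh, Gata4, Fshr and Dhh were under 3 in all 3 populations, and Sox9 was at 3.37 at both ends. Of the 6 Leydig, 10 stromal and 12 leukocyte markers, the medians were between 2.17 and 2.72 at both ends.

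**Figure D1:**
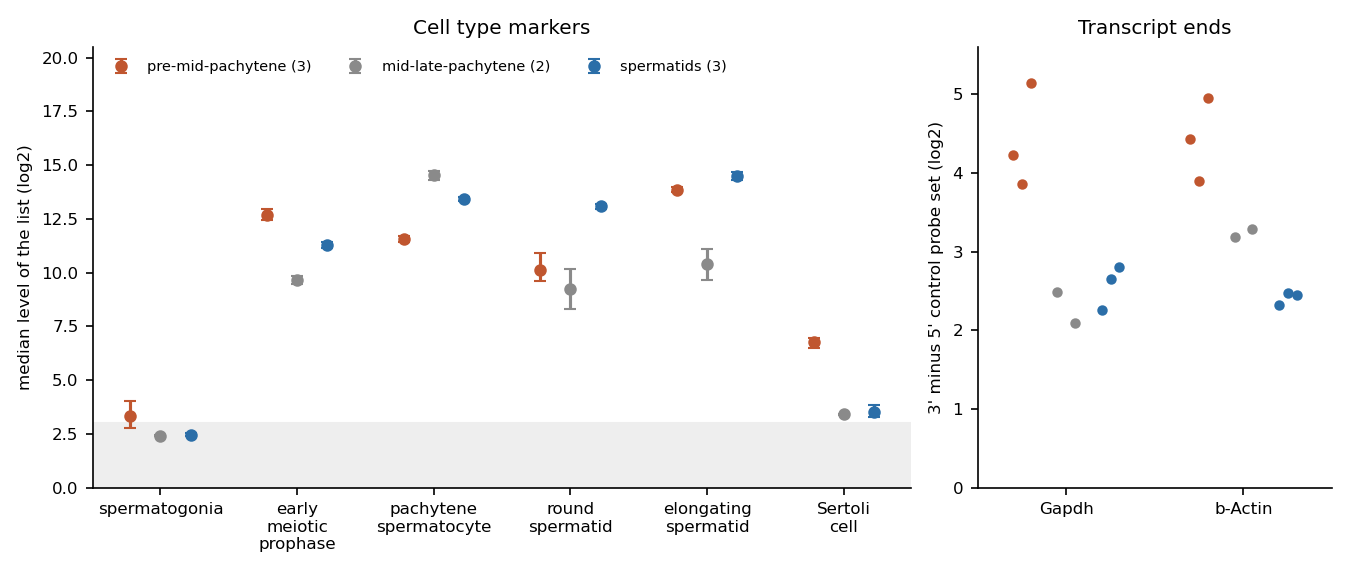
Left, the median level (log2) of 6 marker lists in the euploid germ cell arrays, as the mean of the per-array medians with bars from the lowest to the highest array; the grey band is the background range under 3. Right, the 3′ minus 5′ difference (log2) of the control probe sets of Gapdh and b-Actin on each euploid germ cell array, where the 3 pre-mid-pachytene arrays lie above all spermatid arrays.

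RNA quality differed as well. The 3′ probe set of Gapdh exceeded its 5′ probe set by 3.86 to 5.14 on the pre-mid-pachytene arrays and by 2.26 to 2.80 on the spermatid arrays, and that of b-Actin by 3.90 to 4.95 and by 2.32 to 2.48. Pre-mid-pachytene replicate 3 had the highest value for both. The groups did not overlap, and the part of the transcript ends, of the Sertoli cell markers and of the elongating spermatid markers in the differences below was not tested. These are sorted but bulk samples, so that fewer cells of a type and less RNA per cell cannot be told apart. Array pairs within either end correlated across genes at r = 0.982 to 0.989 and the pair of mid-late-pachytene arrays at 0.977, where genes are not independent replicates.

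Most of the measured transcriptome differed between the ends of the path. Of the 9266 tested genes 7938 (85.7%) changed, 4478 (48.3%) with a higher level in spermatids and 3460 (37.3%) with a lower one (limma, two-sided, Benjamini-Hochberg adjusted p under 0.05 over all tested genes, all 22 arrays in the fit). "Rose" and "fell" are used below only for genes past this threshold, from pre-mid-pachytene spermatocytes to spermatids, and differences carry the SE of the fit. The median size of a difference, in either direction, was 1.96 and the median SE was 0.23. Of all tested genes 72.6% were called with a difference of at least 1. At least 3 separated the ends in 1576 genes that rose (17%) and 1202 that fell (13.0%), and at least 7 in 25 (0.27%) and 45 (0.486%).

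A gene that entered the test through 1 population alone had to differ, and 1821 genes were of this kind, of which 96.6% were called. Among the 7445 genes at 4 or more in both populations, 83.0% were called, 3662 higher (49.2%) and 2517 lower (33.8%) in spermatids. All arrays of a group lay on 1 side of all arrays of the other for 86.5% of the tested genes. With such a background, the number of called members of a gene list says little by itself. Each list below is to be read against all tested genes, of which 48.3% rose and 37.3% fell, with a median difference of 0.38. Quantile normalization of all arrays moved this median to 0.09 and centring on the autosomal median moved it to 0.53, so the sign of small differences depends on the scaling. Next to the limit of 4, Myo6 (4.001, the higher group mean), Aopep and Rnf144b were just inside, and Cacna1g (3.999), Slc44a1 and Ier3 just outside.

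**Figure D2:**
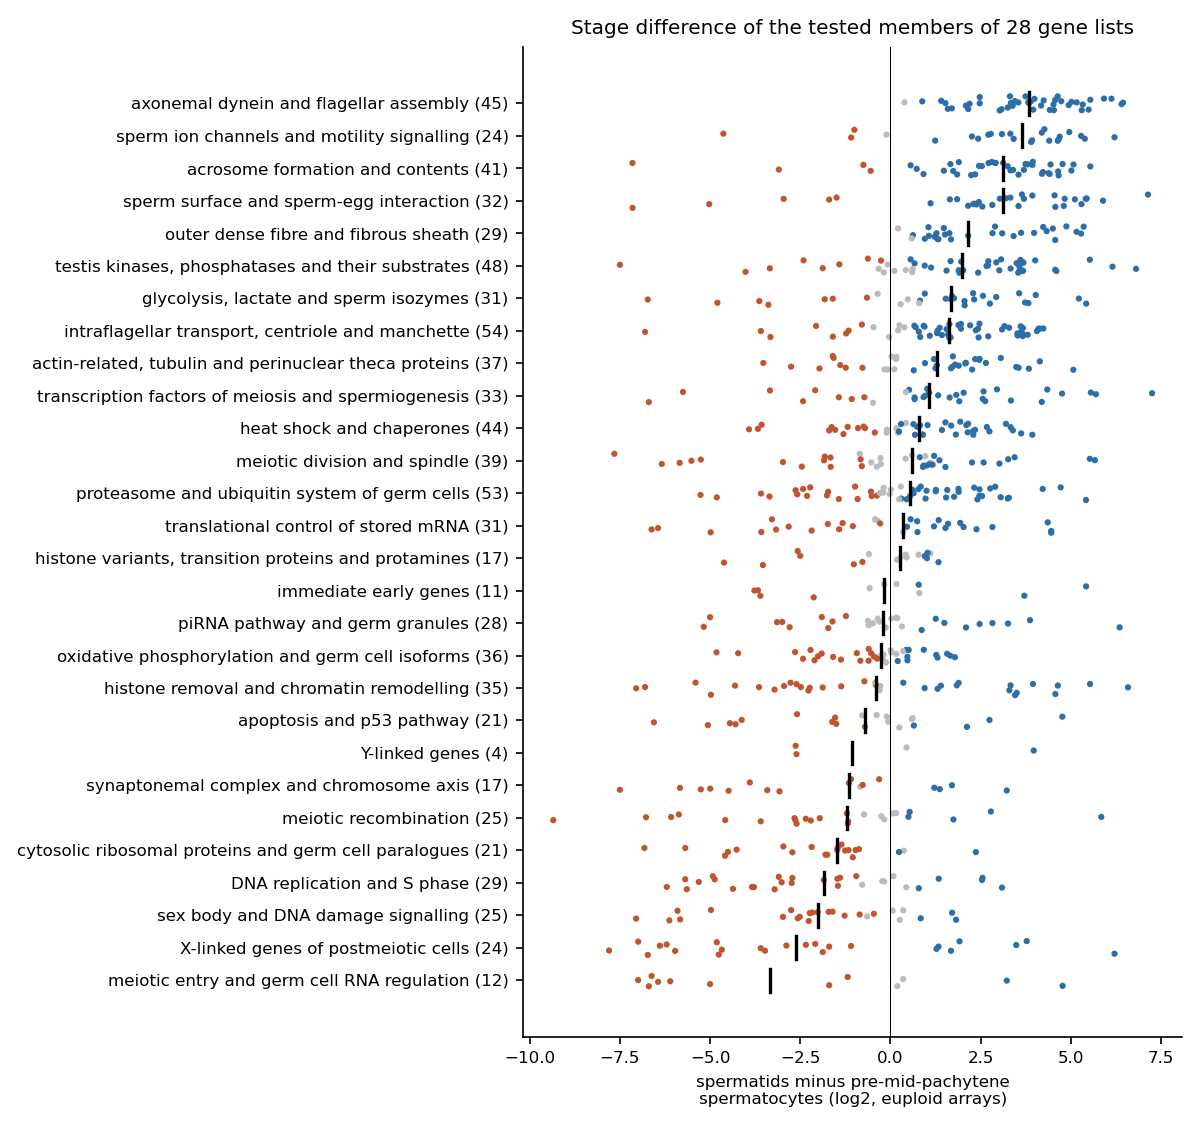
Difference of each tested member (dots, log2, spermatids minus pre-mid-pachytene spermatocytes) of 28 gene lists, with the median as a bar and the number tested in brackets; blue dots rose, orange dots fell and grey dots did not pass. Lists of the flagellum, acrosome and sperm surface lie to the right, with medians of 2.16 to 3.85, and those of meiotic entry, sex body and replication to the left, with medians of -3.35 to -1.85.

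The largest fall was that of Prss50, a testis serine protease. It stood at 12.62, 12.97 and 12.31 on the pre-mid-pachytene arrays and at 2.43, 1.92 and 1.88 on the spermatid arrays, within the background range, and was already there in mid-late-pachytene spermatocytes (1.87 and 1.93). The difference was -10.56 ± 0.18 (adjusted p = 2.47e-16). Ccnb1ip1, the ubiquitin ligase HEI10 that marks future crossovers, followed with 12.51, 12.53 and 12.26 against 2.46, 2.34 and 4.45 (-9.35 ± 0.38, adjusted p = 2.07e-12). Prss50 ended in the background range on all 3 spermatid arrays and Ccnb1ip1 on 2 of 3. In that range the size of a difference depends on the floor of the method, and 439 of the genes that fell had a spermatid mean in it.

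Other large falls concerned genes of general cell function: Papolg, a nuclear poly(A) polymerase (-8.49), Exosc8, a subunit of the RNA exosome (-7.98), Uba6, an enzyme that activates ubiquitin (-7.96), and Scap, the escort protein of the sterol response (-7.85). Among genes at 4 or more at both ends, the largest fall was that of Cmpk1, a nucleotide kinase, from 12.54, 12.81 and 11.89 to 4.12, 4.72 and 5.31. Ppp1ca, the alpha catalytic subunit of protein phosphatase 1, fell by 7.5 ± 0.37, and Tex101, a germ cell surface protein, by 7.15 ± 0.31 from a level of 14.74 to 15.34. In each of these genes the arrays of the ends lay more than 5 apart.

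The largest rises started mostly from the background range, as did 455 of the genes that rose. Ccdc105 went from 3.26, 3.25 and 3.26 to 12.09, 11.87 and 12.01 (8.73 ± 0.38, adjusted p = 4.86e-12). Pkdrej, a polycystin-like receptor of the sperm head, went from 2.07, 2.43 and 2.19 to 10.60, 10.89 and 10.50 (8.43 ± 0.17, adjusted p = 1.39e-15). The arrays of a population lay within 0.4 of each other in both genes. Ak1, an adenylate kinase (8.02), Cpt1b, a carnitine palmitoyltransferase of the mitochondrial surface (7.74), and Atp10a, a phospholipid flippase (7.74), rose by nearly as much. Slc25a54, a predicted mitochondrial carrier, had the largest rise of the genes at 4 or more at both ends, from 4.41, 4.36 and 4.16 to 12.29, 12.43 and 12.25. It stood at 12.98 and 12.61 in mid-late-pachytene spermatocytes and so had reached its late level within prophase.

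Several transcripts of meiotic entry fell steeply. Stra8, the retinoic acid target that starts meiosis, was at 9.46, 8.73 and 8.20 in pre-mid-pachytene spermatocytes and at 2.09, 2.08 and 2.12 in spermatids (-6.70 ± 0.28, adjusted p = 2.8e-12). Dazl, an RNA-binding protein needed for germ cell development, was much more abundant, at 14.65, 14.69 and 14.50, and fell to 8.15, 7.58 and 8.25 (-6.62 ± 0.19, adjusted p = 5.05e-14), a fold of 98.5. Both had reached their late level by mid-late pachytene. Of the 12 tested genes of this list 8 fell and 2 rose, with a median of -3.35, but among the 8 members at 4 or more at both ends 4 fell and the median was -0.75. Elavl2 (-7.0), Cpeb1 (-6.44), Sohlh2 (-6.11) and Ythdc2 (-5.00), all regulators of RNA or transcription in early germ cells, fell. Ddx4, the helicase that marks the germ line, stood at 14.78 to 15.08 and at 15.12 to 15.17 and did not pass the test.

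The synaptonemal complex list is shown with some of its promoters because a short sequence was more frequent in its windows than in those of all tested genes, although most of its windows lack it. Of 17 tested members 12 fell and 4 rose, with a median of -1.15. The letters CNCCTCAG, known as a site of the meiotic initiator STRA8, were searched on both strands in windows from 250 bases before to 50 bases after the start of each gene in the RefSeq table (GRCm38.p6), where 7660 of the 9266 tested genes were found. They occurred in 5 of 19 windows of this list (26.3%), in 9.6% of the windows of tested genes and in 7.9% of all windows. They occurred also in 6 of 28 windows of the sperm surface list (21.4%), most members of which rose. The windows of 3 members that fell follow, 5′ to 3′ in the direction of the gene, with the matches in capitals, all of them on the opposite strand.
4930447C04Rik (known as Six6os1, chr12:72917716-72918015, minus strand): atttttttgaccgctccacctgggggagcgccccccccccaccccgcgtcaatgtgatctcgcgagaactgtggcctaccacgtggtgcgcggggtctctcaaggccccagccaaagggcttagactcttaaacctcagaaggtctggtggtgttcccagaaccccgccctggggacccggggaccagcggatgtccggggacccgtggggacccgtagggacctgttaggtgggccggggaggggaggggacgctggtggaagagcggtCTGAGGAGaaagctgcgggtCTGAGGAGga
Tex12 (chr9:50561219-50561518, minus strand): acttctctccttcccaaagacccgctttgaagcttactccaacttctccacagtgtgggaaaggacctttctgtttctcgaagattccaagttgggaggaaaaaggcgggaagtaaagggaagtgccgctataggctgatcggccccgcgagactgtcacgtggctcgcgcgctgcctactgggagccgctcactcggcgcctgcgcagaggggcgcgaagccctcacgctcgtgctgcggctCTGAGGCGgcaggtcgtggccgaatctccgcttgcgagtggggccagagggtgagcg
Sycp1 (chr3:102936051-102936350, minus strand): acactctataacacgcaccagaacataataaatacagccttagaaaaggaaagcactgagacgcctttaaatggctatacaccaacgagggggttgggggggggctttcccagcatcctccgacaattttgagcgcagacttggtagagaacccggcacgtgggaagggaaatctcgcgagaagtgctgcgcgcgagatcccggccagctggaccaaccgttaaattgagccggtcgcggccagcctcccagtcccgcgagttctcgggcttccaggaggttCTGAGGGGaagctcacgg

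A match of letters is a description and shows no binding. The E2F site TTTCCCGC was found in 10.5% of the windows of this list and 17.4% of those of the recombination list, against 1.9% for tested genes, from 2 and 4 windows.

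The falls within the synaptonemal complex were of unequal size. 4930447C04Rik, a central element, was at 11.98, 12.06 and 11.42 in pre-mid-pachytene spermatocytes and at 4.58, 4.34 and 4.04 in spermatids (-7.5 ± 0.29, adjusted p = 1.42e-12), and Tex12, another, fell by 5.84 ± 0.50. Sycp1, the transverse filament, fell from 13.68, 14.14 and 13.13 to 10.15, 9.60 and 9.5 (-3.90 ± 0.21). Sycp3, a lateral element, was among the most abundant transcripts at 15.61, 15.83 and 15.74, and was still at 12.13, 12.53 and 12.29 in spermatids (-3.41 ± 0.12, adjusted p = 5.64e-13). Whether the falls of these members differ from each other was not tested. Central elements did not all fall, however, since Syce1 rose by 1.71 ± 0.06. Syce2 was at 14.41 to 14.60 and at 13.55 to 13.93 without passing (adjusted p = 0.114), although its arrays did not overlap. It was called lower (-0.84) with only the 6 euploid arrays in the fit (limma adjusted p = 0.00174) or the 16 germ cell arrays (0.00865).

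Among the cohesin subunits of the meiotic axis, Stag3 rose from 12.46, 13.08 and 12.35 to 14.17, 13.95 and 13.88 (1.37 ± 0.15, adjusted p = 4.04e-07). Rec8, the kleisin that holds sister chromatids until the second division, rose from 8.18, 7.68 and 8.40 to 11.43, 11.16 and 11.34 (3.23 ± 0.30, adjusted p = 4.93e-08). The arrays of the ends did not overlap in either gene, as in 86.5% of all tested genes. The other rise in this list was that of Meikin, a meiotic kinetochore protein (1.22). Trip13, the ATPase that removes HORMA proteins from the axis (-5.00), Sgo2a, the shugoshin that protects centromeric cohesin (-5.26), and Terb2, which ties telomeres to the nuclear envelope (-4.49), fell. Smc1b, another meiotic cohesin subunit, fell by 0.31 ± 0.12 (limma adjusted p = 0.0295). It missed the threshold without spermatid replicate 2 (-0.265, adjusted p = 0.0957).

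Recombination genes had no common direction. Of 25 tested, 15 fell, 5 rose and 5 did not pass (median -1.21), and of the 16 at 4 or more at both ends 7 fell (median -0.49). Without spermatid replicate 2 or pre-mid-pachytene replicate 3, or under quantile normalization, 3 rose. Spo11, which makes the breaks, stood at 11.31, 11.64 and 10.67 and at 11.05, 10.84 and 11.23, and did not pass (adjusted p = 0.435). Mei4, a partner in break formation, fell by 4.58. The strand exchange protein Dmc1 fell from 10.20, 10.57 and 10.05 to 3.04, 3.01 and 4.43 (-6.78 ± 0.28, adjusted p = 2.45e-12), and its cofactor Mnd1 from 8.61, 8.62 and 8.05 to 2.33, 2.33 and 2.37 (-6.08 ± 0.18). Both were at the late level in mid-late-pachytene spermatocytes. Meiob, a binding protein of single-stranded DNA, fell by 5.87 and Tex11, an X-linked gene of crossover formation, by 3.59. Mus81, a nuclease of the alternative crossover route, went the other way, from 3.32, 3.89 and 3.04 to 9.17, 9.32 and 9.32 (5.85 ± 0.43, adjusted p = 2.87e-09).

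Genes of the sex body and of DNA damage signalling fell in 18 of 25 cases and rose in 3, with a median of -2.02. Scml2, an X-linked Polycomb protein of the germ line, fell from 11.32, 11.68 and 10.71 to 4.87, 4.14 and 3.55 (-7.05 ± 0.30, adjusted p = 3.36e-12). Atm, the kinase that answers to double-strand breaks, went from 8.97, 8.11 and 8.45 to 2.64, 2.32 and 2.86, and Topbp1, which loads ATR on unpaired axes, from 13.49, 14.02 and 13.21 to 7.75, 7.13 and 8.35. Each fell by more than 5. H2ax, whose phosphorylated form coats the sex body, fell by 2.57, and the lysine demethylase Kdm1a rose by 1.82. Brca1 stood at 3.90 to 5.42 and at 4.57 to 4.98 and did not pass (adjusted p = 0.845).

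DNA replication genes gave 19 falls and 5 rises in 29, with a median of -1.85. The helicase subunits Mcm2 (-4.87), Mcm3 (-5.69) and Mcm4 (-5.31) and the loading factor Cdt1 (-5.65) fell. Mcm7, of the same complex, rose from 10.40, 11.08 and 10.25 to 13.00, 13.21 and 13.19 (2.56 ± 0.33, adjusted p = 2.54e-06), and Rrm1, the large subunit of ribonucleotide reductase, rose by 3.09. Both were as high in mid-late-pachytene spermatocytes, where Mcm7 stood at 12.92 and 12.88. On the arrays where these early genes were high, the Sertoli cell markers were higher too, as given above.

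Genes of the meiotic divisions went both ways. Of 39, 16 rose and 13 fell (median 0.60), against 48.3% and 37.3% of all tested genes. Under quantile normalization 10 rose and 17 fell. Ccna1, the germ cell cyclin of the first division, rose from 8.09, 8.08 and 7.86 to 13.67, 13.87 and 13.51 (5.67 ± 0.12, adjusted p = 1.35e-15), a fold of 50.9. The kinase Plk1 rose by 5.53 ± 0.90, the phosphatases Cdc25c and Cdc25a by 3.45 and 3.27, and Aurka and Aurkb, kinases of the spindle and the chromosomal passenger complex, by 3.02 and 2.59. Ccnb3, an X-linked cyclin, fell from 9.90, 10.23 and 9.08 to 2.06, 2.08 and 2.11. Mad2l1 of the spindle checkpoint (-6.34) and Sgo1 (-5.52) fell as well, whereas Cdc20, Bub1 and Nek2, all above 13 on each array of both ends, did not pass. With only the 16 germ cell arrays in the fit, Cdc20 was called lower (-0.38, limma adjusted p = 0.0049) and Nek2 higher (0.60, adjusted p = 0.00697).

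The genes of the flagellum rose nearly without exception, and the axoneme list is shown with 3 of its promoters, which hold a short sequence that most windows of the list lack. Its 45 tested members had a median of 3.85 and 44 of them rose, where the median of all tested genes was 0.38. Under quantile normalization 43 rose. The letters GTTGCC, a short core of the X-box that RFX factors bind, were found on either strand in 11 of 36 windows (30.6%), in 14.0% of the windows of tested genes and in 12.5% of all windows. The synaptonemal complex list had them in 21.1% of its windows. They occurred in 16.5% of the windows of genes that rose by at least 3 and in 10.6% of those that fell by at least 3. The windows of 3 members that rose follow, with the matches in capitals.
Drc1 (chr5:30281143-30281442, plus strand): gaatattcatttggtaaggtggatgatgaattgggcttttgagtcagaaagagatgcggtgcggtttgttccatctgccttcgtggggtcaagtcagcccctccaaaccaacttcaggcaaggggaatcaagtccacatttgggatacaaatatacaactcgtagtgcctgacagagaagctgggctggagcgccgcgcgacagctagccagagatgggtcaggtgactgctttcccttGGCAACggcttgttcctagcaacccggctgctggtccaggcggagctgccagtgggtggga
Dnaic2 (chr11:114727169-114727468, plus strand): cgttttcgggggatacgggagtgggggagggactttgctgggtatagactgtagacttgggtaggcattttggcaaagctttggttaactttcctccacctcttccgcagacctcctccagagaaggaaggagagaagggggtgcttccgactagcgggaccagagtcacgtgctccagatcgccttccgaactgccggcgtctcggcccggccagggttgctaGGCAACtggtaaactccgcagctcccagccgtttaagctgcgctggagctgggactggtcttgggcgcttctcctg
Spag16 (chr1:69826720-69827019, plus strand): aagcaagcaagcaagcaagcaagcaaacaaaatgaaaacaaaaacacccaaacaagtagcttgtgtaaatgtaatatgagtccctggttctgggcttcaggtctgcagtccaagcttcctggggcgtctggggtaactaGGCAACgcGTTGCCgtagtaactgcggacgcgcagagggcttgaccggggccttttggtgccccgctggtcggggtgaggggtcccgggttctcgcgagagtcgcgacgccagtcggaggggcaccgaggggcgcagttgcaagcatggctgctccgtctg

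In Drc1 and Dnaic2 the match begins 11 and 26 bases before the start, and in Spag16 a match on each strand lies 111 and 103 bases before it. The windows of genes that rose by at least 3 had a median CpG ratio, observed over expected, of 0.55, against 0.79 for genes that fell by at least 3 and 0.76 for tested genes. None of the motifs named here contains another.

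Tcte1, a subunit of the nexin-dynein regulatory complex, had the largest rise of the list, from 4.38, 4.26 and 4.47 to 10.85, 11.01 and 10.60 (6.45 ± 0.13, adjusted p = 1.22e-15), a fold of 87.5. Drc1 of the same complex rose from 5.65, 7.08 and 6.5 to 12.58, 12.63 and 12.41, and Dnaic2, an intermediate chain of the outer dynein arm, from 6.52, 6.40 and 6.78 to 11.95, 12.61 and 11.77 (5.54 ± 0.19, adjusted p = 3.29e-13). All 3 were at their late level in mid-late-pachytene spermatocytes, where Tcte1 stood at 10.70 and 10.44. Cfap52, a protein of the inner microtubule wall (6.41), the dynein heavy chain Dnah6 (5.92), the radial spoke protein Rsph6a (5.50) and the central pair protein Spag16 (4.52) rose with them. The smallest rise was that of Rsph1 (0.88), and Efcab2 did not pass. Efcab2 was called higher (0.39) with only the 6 euploid arrays in the fit (limma adjusted p = 0.0353).

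Outer dense fibre and fibrous sheath genes, which build the sheath around the axoneme, rose in 27 of 29 cases (median 2.16), and in 19 under quantile normalization. Tekt4, a filament protein of the doublet microtubules, rose from 8.11, 9.13 and 9.05 to 14.18, 13.96 and 14.01 (5.29 ± 0.21, adjusted p = 2.06e-12). Tekt3 (5.36), Septin12 of the annulus (5.16) and Fsip1 (4.88) rose to a like degree. Akap4, the main protein of the fibrous sheath, was already at 14.08, 14.53 and 14.22 in pre-mid-pachytene spermatocytes and reached 15.55, 15.41 and 15.70 (1.28 ± 0.27, adjusted p = 0.000407). Odf1 likewise went from 13.61 to 13.90 up to 14.87 to 15.08. These 2 genes belong also to the elongating spermatid markers, and in 15 of the 29 members the mid-late-pachytene mean lay at least 1 below both ends.

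**Figure D3:**
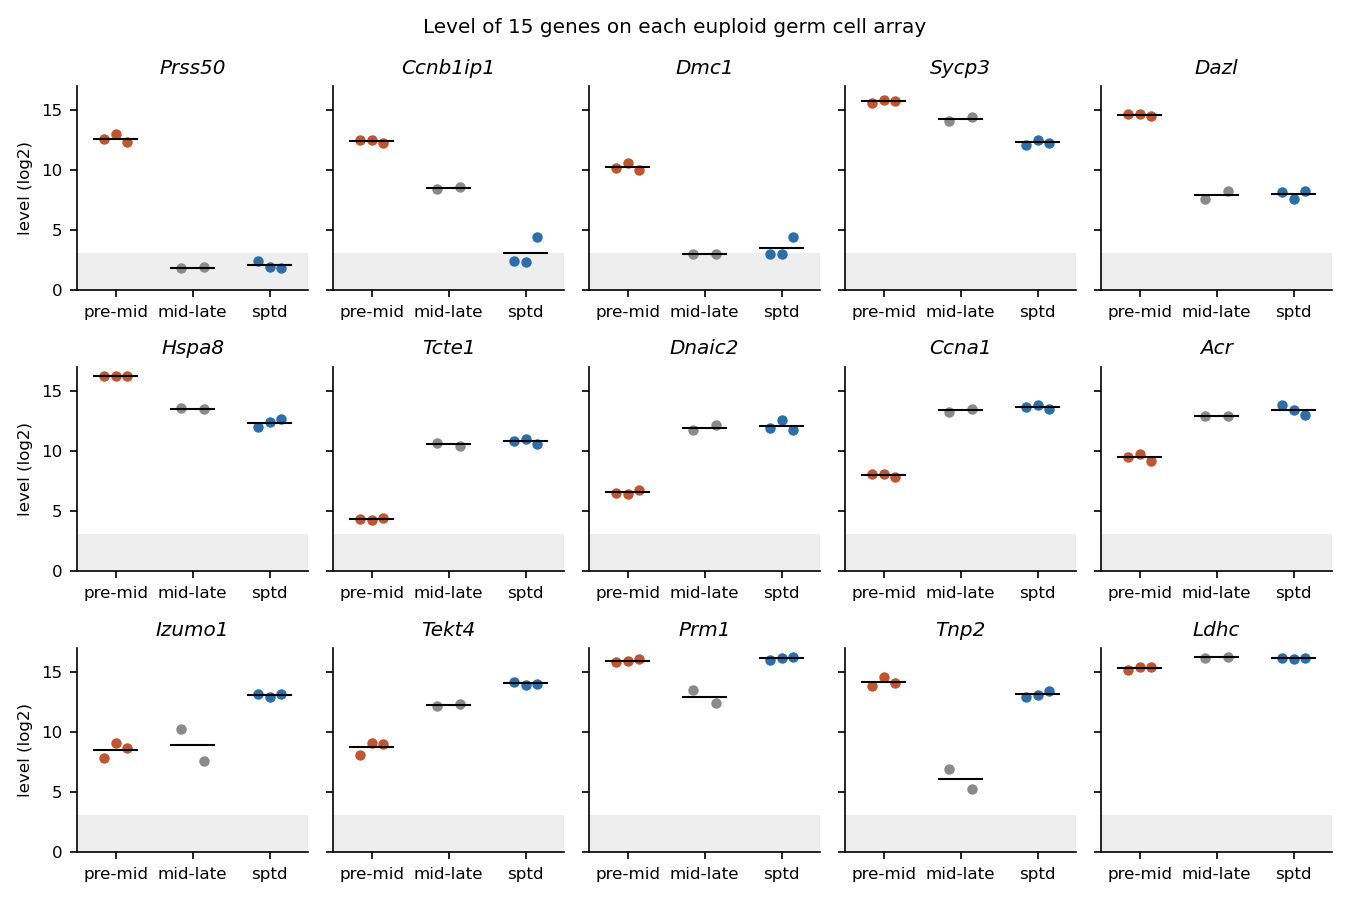
Level (log2) of 15 genes on each euploid germ cell array, with the group mean as a line; pre-mid and mid-late are pachytene spermatocytes, sptd are spermatids, and the grey band is the background range under 3. Prss50 and Dmc1 are lost by mid-late pachytene, Tcte1, Dnaic2 and Ccna1 have risen by then, and Prm1 and Tnp2 are lowest in the middle.

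Genes of intraflagellar transport, centriole and manchette, the microtubule skirt that shapes the nucleus, rose in 41 of 54 cases and fell in 8 (median 1.64). The tubulin ligase Ttll9 (4.24), the katanin-like Katnal2 (4.14) and the kinesin Kif9 (4.11) rose. Hdac6, an X-linked tubulin deacetylase, fell from 9.32, 9.78 and 8.51 to 2.85, 2.16 and 2.2 (-6.80 ± 0.28). Ift88 and Ift81, carriers in intraflagellar transport, stood between 10.48 and 11.86 at both ends and did not pass. Ift81 was called lower (-0.47) with only the 6 euploid arrays in the fit (limma adjusted p = 0.0144).

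The acrosome list rose in 37 of 41 cases and fell in 4, with a median of 3.13. Zp3r, a matrix protein of the acrosome, rose from 8.34, 9.44 and 8.74 to 14.56, 14.13 and 14.45 (5.54 ± 0.35, adjusted p = 3.61e-10). Acr, the protease acrosin, rose from 9.52, 9.78 and 9.16 to 13.80, 13.46 and 13.02 (3.94 ± 0.23, adjusted p = 1.57e-10), a fold of 15.3, and had come to 12.96 and 12.94 by mid-late pachytene. The arrays of the ends did not overlap, as in 86.5% of all tested genes. Zpbp2 (5.08), Acrbp, the binding protein of proacrosin (5.02), the hyaluronidase Spam1 (4.78) and the glycosyltransferase Galnt3 (4.67) rose too. Besides Tex101, the autophagy gene Atg5 fell by 3.09 and Vps13b, a Golgi protein, by 0.75.

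Sperm surface and sperm-egg interaction genes rose in 27 of 32 cases and fell in 5 (median 3.12, the same counts under quantile normalization). Izumo1, the sperm protein that binds JUNO on the egg, rose from 7.86, 9.09 and 8.68 to 13.14, 12.96 and 13.20 (4.55 ± 0.51, adjusted p = 4.33e-07). Its mid-late-pachytene arrays stood at 10.26 and 7.58, both below the spermatid arrays. Zan, the zonadhesin that binds the egg coat, went from 2.31, 2.37 and 2.39 to 9.26, 9.58 and 9.66 (7.14 ± 0.28, adjusted p = 1.63e-12), and Dcst1, a membrane protein of sperm, rose by 5.90. The metalloprotease-like Adam26a (5.44), Adam1b (5.42) and Adam18 (5.30) and the fusion factor Spaca6 (5.12) rose. Tpst2, a tyrosylprotein sulfotransferase, fell by 5.02, and Ly6k, a partner of TEX101, by 2.96.

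Ion channels and motility signalling gave 20 rises and 3 falls in 24, with a median of 3.66. Catsper3, a pore subunit of the sperm calcium channel, rose from 7.05, 8.31 and 8.32 to 12.56, 12.30 and 12.82 (4.67 ± 0.52, adjusted p = 3.85e-07). Lrrc52, the partner of the potassium channel SLO3, went from 1.77, 3.93 and 1.84 to 9.04, 8.34 and 8.81 (6.22 ± 0.42). Neither had come near its late level on the mid-late-pachytene arrays. Slco6d1, an organic anion transporter (5.39), the calpain Capn11 (5.29) and the exchanger Slc9b1 (4.96) rose. Prkacb, a catalytic subunit of protein kinase A, fell from 6.34, 6.73 and 6.95 to between 2.02 and 2.07.

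Testis kinases and phosphatases rose in 33 of 48 cases and fell in 8 (median 1.99). Tssk5, of the testis-specific serine kinases, rose from 2.24 to 2.26 up to 8.92 to 9.26 (6.81 ± 0.33), and Ppp3r2, the regulatory subunit of sperm calcineurin, from 8.50, 8.79 and 8.20 to 12.98, 13.14 and 13.18 (4.60 ± 0.29, adjusted p = 3.92e-10). Its catalytic partner Ppp3cc rose by 4.02. Tssk6 was at 13.50 to 13.93 and at 13.28 to 14.05, and its middle arrays at 8.91 and 7.82, as for other elongating spermatid markers.

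Of 17 tested genes for the packaging of the nucleus 4 rose and 6 fell, and the protamines did not pass. Prm1, protamine 1, stood at 15.82, 15.95 and 16.08 at the start, at 13.47 and 12.45 in the middle and at 15.999, 16.15 and 16.25 in spermatids (0.18 ± 0.76, adjusted p = 0.826). The highest value on any array was 16.75, so these levels lie near the top of the scale. Tnp1 (0.42) and Prm2 (0.28) did not pass either. With only the 6 euploid arrays in the fit Tnp1 was called higher (limma adjusted p = 0.00755). Prm1 was called higher when the replicate number was also in the fit of these 6 arrays (limma adjusted p = 0.00783). Tnp2, transition protein 2, was at 13.86, 14.55 and 14.11, fell to 6.92 and 5.26 in the middle and was at 12.92, 13.13 and 13.42 in spermatids. Its difference of -1.01 ± 0.45 was just past the threshold (adjusted p = 0.0459) and missed it without pre-mid-pachytene replicate 2 (-0.83, adjusted p = 0.143) and without most of the other arrays. The late histones Hils1 (1.33) and H1f7 (1.03) rose, and H2az2 (-4.61), H3f3b (-3.54), H2ax and H1f2 (-2.50) fell. The 4 rises became 1 under quantile normalization and 7 when only the 6 arrays were fitted.

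Genes of histone removal and chromatin remodelling were spread in both directions, with 15 rises and 17 falls in 35 (median -0.41). Chd5, a remodeller of spermatid chromatin, rose from 5.23, 4.45 and 5.37 to 10.47, 10.37 and 10.81 (5.54 ± 0.46, adjusted p = 1.26e-08), Morc2b from 9.39, 9.97 and 9.14 to 13.98, 14.25 and 14.20, and the histone chaperone Nasp by 4.58. The methyltransferases Ehmt1 (-5.40), Dnmt3b (-4.31) and Setd2 (-3.64) fell.

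Transcription factors of the list rose in 23 of 33 cases and fell in 8 (median 1.08), and 15 rose under quantile normalization. Foxj1, the master regulator of motile cilia, went from 3.29, 3.26 and 3.44 to 10.37, 10.53 and 10.87 (7.26 ± 0.61, adjusted p = 1.51e-08), and its mid-late-pachytene arrays differed, at 8.47 and 4.48. The factors Sox5 (5.70), Klf17 (5.56), Ovol1 (4.35) and Klf4 (4.20) rose, and Taf4b, a TFIID subunit of germ cells, fell by 5.75. Rfx1, of the family that binds the X-box, rose from 4.56, 4.34 and 4.19 to 9.34, 8.94 and 9.08 (4.76 ± 0.23, adjusted p = 1.29e-11), with mid-late-pachytene arrays at 5.39 and 4.03. The full cAMP response element TGACGTCA was in 2.4% of the windows of genes that rose by at least 3 and in 2.4% of those that fell by at least 3, against 3.2% for tested genes.

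In the piRNA pathway 9 of 28 genes rose and 9 fell (median -0.22), and 14 fell under quantile normalization. Henmt1, which methylates the ends of piRNAs, rose from 2.29, 2.86 and 2.74 to 9.05, 9.19 and 8.72 (6.36 ± 0.17, adjusted p = 2.05e-14). Mov10l1, the helicase that feeds piRNA precursors, fell from 13.57, 13.74 and 13.33 to 8.31, 8.38 and 8.43 (-5.18 ± 0.10, adjusted p = 7.32e-16). Piwil2, the PIWI protein MILI, fell by 3.0, while Piwil1, or MIWI, peaked at 14.91 and 14.32 in the middle and stood at 11.42 to 12.60 and at 10.52 to 11.86 at the ends. Tdrd1 (3.87) and Ddx25, a helicase of the chromatoid body (2.83), rose.

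Regulators of stored messages rose in 15 of 31 cases and fell in 13 (median 0.35), near the 48.3% and 37.3% of all tested genes. The testis poly(A) polymerase Papolb rose from 9.32, 10.004 and 9.47 to 13.94, 14.05 and 14.18 (4.46 ± 0.18, adjusted p = 2.45e-12), and the poly(A)-binding proteins Pabpc6 and Pabpc2 by 4.46 and 4.36. Tsn, the RNA-binding translin (-4.98), Elavl1 (-3.58) and the cap-binding factor Eif4e (-3.29) fell.

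Cytosolic ribosomal protein genes fell in 18 of 21 cases, with a median of -1.47, and the same counts held under quantile normalization. Rpl15 fell from 10.48, 10.41 and 10.42 to 3.33, 2.64 and 4.87 (-6.82 ± 0.46, adjusted p = 8.58e-10), and Rpl14 from 9.59, 10.15 and 10.39 to 4.12, 4.39 and 4.55. Rpl39l, the copy of RPL39 made in the testis, was at 14.45 to 14.67 and at 14.84 to 14.98 and did not pass. It was called higher (0.37) with only the 6 euploid arrays in the fit (limma adjusted p = 0.00658). The elongation factor Eef2 rose by 2.37 ± 0.13. Only 23 of the 67 listed genes had a probe set of their own name, and copies of ribosomal protein genes can share probes, which was not tested.

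Genes of sugar use rose in 20 of 31 cases and fell in 7 (median 1.69). The phosphofructokinase Pfkp rose from 5.34, 5.45 and 5.47 to 10.89, 10.92 and 10.74 (5.43 ± 0.16, adjusted p = 6.52e-14), and the sugar transporters Slc2a8 and Slc2a5 by 5.23 and 3.83. Slc2a1, the common glucose transporter, fell from 6.86, 6.33 and 6.77 to between 3.24 and 3.32 (-3.38 ± 0.16), and the lactate carrier Slc16a1 by 4.80. Ldhc, the testis lactate dehydrogenase, was at 15.19 to 15.43 and at 16.08 to 16.19, and did not pass (0.80 ± 0.62, adjusted p = 0.235). The arrays of the ends did not overlap, however. It was called higher with only the 6 euploid arrays in the fit (limma adjusted p = 0.000451) or the 16 germ cell arrays (4.96e-07). Oxidative phosphorylation genes had a median of -0.26 with 11 rises and 17 falls in 36, and 27 falls under quantile normalization. Ndufa1 and Ndufa4 of complex I fell by 4.22 and 4.82, and Atp5b of the ATP synthase rose by 1.57.

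Chaperones rose in 27 of 44 cases and fell in 12 (median 0.78; 19 and 16 under quantile normalization). Hspa8, the constitutive HSC70, was at 16.26, 16.26 and 16.27 in pre-mid-pachytene spermatocytes and at 11.98, 12.40 and 12.66 in spermatids (-3.92 ± 0.15, adjusted p = 1.01e-12). Pdilt, a testis disulfide isomerase homologue (3.94), and Cct6b, a testis chaperonin subunit (3.63), rose. Proteasome and ubiquitin genes rose in 29 of 53 cases and fell in 17 (median 0.54; 20 and 24 under quantile normalization). Beside both lists, 48.3% of all tested genes rose and 37.3% fell, with a median of 0.38. Marchf11 (5.42) and Ube2d2b (4.72) rose, and the core subunits Psma2 (-3.35) and Psmb1 (-2.63) fell.

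Pairs of a general gene and its germ cell homologue were compared because the second is often made when the first is not. Of 54 listed pairs 29 had both members tested. In 10 the general member fell and the germ cell member rose, against 7 in which both fell, 8 in which both rose and 4 in which a member did not pass. Of all tested genes 48.3% rose and 37.3% fell. Among the pairs in which both fell, Slc25a31 was entered with both Slc25a4 and Slc25a5. X-linked Taf7l was entered there as the general member and Taf7 as its homologue. Ccna2 fell by 3.02 ± 0.50 and Ccna1 rose by 5.67 ± 0.12. X-linked Tktl1 of the pentose phosphate pathway fell by 6.73 ± 0.25 and autosomal Tktl2 rose by 2.57 ± 0.15. Calr and Calr3 (-1.30 and 2.15), Canx and Clgn (-0.74 and 2.30), Cetn2 and Cetn1 (-2.06 and 2.21), Cox6b1 and Cox6b2 (-2.42 and 1.79), Capza2 and Capza3 (-1.58 and 1.80) and Stag2 and Stag3 (-3.49 and 1.37) behaved alike in sign. Hspa8 fell and Hspa2 rose, the latter by 0.90 ± 0.37 (adjusted p = 0.0321), which missed the threshold without spermatid replicate 1 (0.84, adjusted p = 0.0788) and without all but 1 of the other arrays. Sun1 and Sun5 (-0.77 and 3.67) make up the rest, and Sun1 was not past the threshold without spermatid replicate 3 (-0.34) or pre-mid-pachytene replicate 2 (-0.47). Where both rose, as for Papola (0.56) and Papolb (4.46), the sizes could be far apart. Papola changed sign under quantile normalization (-0.13).

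The X chromosome stood apart from the autosomes. Of its 273 tested genes 80 rose (29.3%) and 167 fell (61.2%), with a median difference of -1.97. Autosomal medians lay between 0.002 on chromosome 2 and 0.81 on chromosome 17, and of 8974 autosomal genes 48.9% rose and 36.6% fell. Only 151 of the X genes were at 4 or more at both ends, and the others had to differ. Of these 151, 56 rose and 72 fell, a weaker skew. Of all 7445 genes at 4 or more at both ends 49.2% rose and 33.8% fell. The median level of X genes minus that of autosomal genes, an X score per array, was -1.18, -1.20 and -1.13 in pre-mid-pachytene spermatocytes and -2.88, -3.25 and -3.10 in spermatids. The groups did not overlap, and the difference was -1.91 (exact permutation test, two-sided, p = 0.1, the smallest that 3 against 3 arrays can give). The mid-late-pachytene arrays were lower still, at -5.24 and -5.18. With no filter on level the difference was -0.54.

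**Figure D4:**
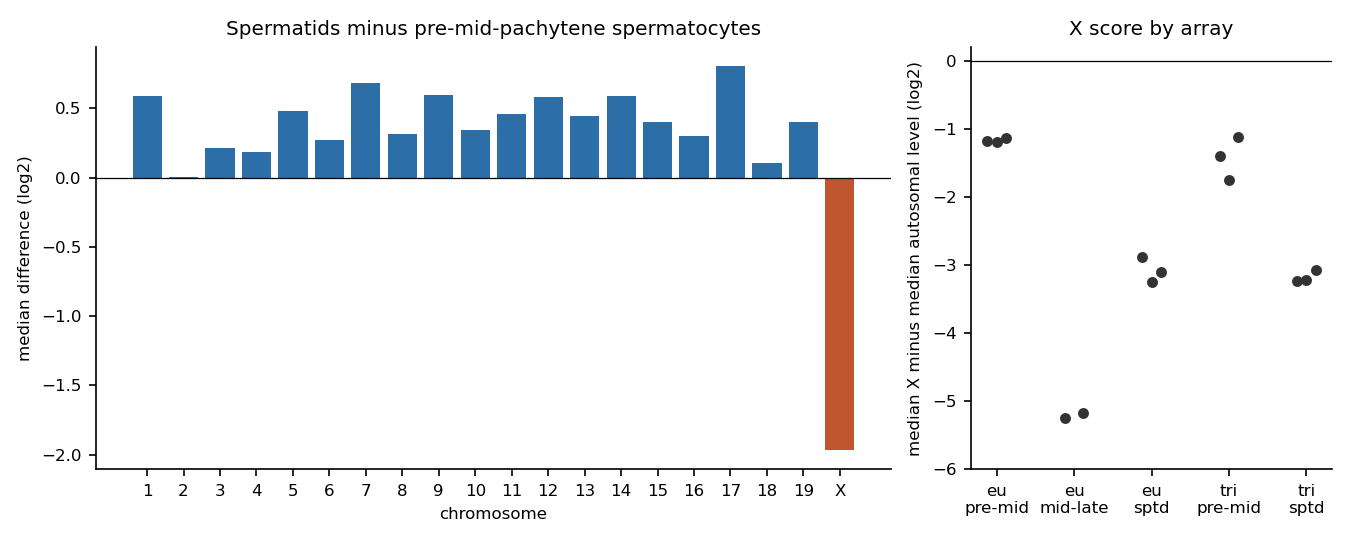
Left, median difference (log2, spermatids minus pre-mid-pachytene spermatocytes, euploid arrays) of the tested genes of each chromosome; the X chromosome lies at -1.97 and every autosome at or above 0. Right, median level of X genes minus that of autosomal genes on each array (log2; eu, euploid; tri, trisomic; sptd, spermatids), lowest in mid-late pachytene.

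Of the X genes that fell most, some ended in the background range and others above it. Magea5 went from 10.11, 10.30 and 9.73 to 2.22, 2.23 and 2.27 (-7.80 ± 0.14, adjusted p = 2.57e-16), and Hprt, a purine salvage enzyme used as a reference gene, from 11.04, 11.18 and 10.31 to 4.08, 2.60 and 4.86 (-6.99 ± 0.51). Bhlhb9 (-7.42), Rbmx2 (-7.34), Tab3 (-7.33) and Bex1 (-7.16) fell as far. Tested X genes had a median level of 7.10 at the start, of 3.56 in the middle and of 5.37 at the end. The X genes that rose included Samt2b, from 2.28, 4.26 and 3.27 to 10.64, 10.82 and 11.16 (7.61 ± 0.43, adjusted p = 1.03e-10). Akap14, an anchor of protein kinase A, went from 5.53, 6.57 and 6.0 to 11.66, 11.64 and 12.12. Fam47c (5.88), Prr32 (5.23) and Prame (5.12) rose as well. Prame and Prr32 were under 2 in mid-late-pachytene spermatocytes.

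Among the fixed list of genes known from postmeiotic X expression, 7 of 24 rose and 17 fell (median -2.61). Of the 14 members at 4 or more at both ends 5 rose and 9 fell (median -1.98). One of the 7 that rose, Lrrc52, lies on chromosome 1 by the gene table. In 14 of the 24 the mid-late-pachytene mean lay at least 1 below both ends. Of 4 tested Y genes Usp9y went from 10.27, 11.07 and 10.19 through 2.32 and 1.99 to 8.0, 7.78 and 7.87 (-2.63 ± 0.22, adjusted p = 1.56e-08). Zfy2, a zinc finger gene of meiotic checkpoints, fell by 2.60, Uty rose by 3.98 and Eif2s3y did not pass.

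The mid-late-pachytene arrays give 1 point between the ends. Elongating spermatid and Sertoli cell markers were high at the start, as given above, and their part in the path was not tested. Of the 3811 genes that rose by at least 1 (41.1%), 2351 (61.7%) had passed the midpoint of their difference by mid-late pachytene, and of the 2913 that fell by at least 1 (31.4%), 1960 (67.3%) had. The medians of the share reached were 79.2% and 76.2%. A further pattern is hidden in the net change: in 877 genes the middle lay at least 1 below both ends, and in 837 at least 1 above both. Fmr1nb, an X-linked gene, went from 12.49, 12.80 and 12.34 through 3.58 and 2.45 to 8.85, 8.72 and 8.86. In the other direction Gfi1, a transcriptional repressor, went from 4.09, 3.29 and 2.92 through 11.12 and 11.10 to 6.53, 7.37 and 7.59, and Gldc, of the glycine cleavage system, from 4.39, 4.40 and 4.42 through 10.997 and 10.76 to 6.55, 7.51 and 7.31. The 2 middle arrays share no sample with the ends, but no test was made of the path.

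The same comparison in trisomic arrays, which the differences above do not use, gave 7878 called genes (85.0%), 4282 higher (46.2%) and 3596 lower (38.8%) in spermatids. Of the 4478 genes that rose in euploid arrays 4131 (92.3%) rose in trisomic ones, and of the 3460 that fell 3316 (95.8%) fell. Cntd1 and Thtpa were called in opposite directions. The euploid rise of Cntd1 (0.50) missed the threshold without pre-mid-pachytene replicate 3 (0.31, limma adjusted p = 0.145) and without spermatid replicate 2 (0.37, adjusted p = 0.114), and its sign turned under quantile normalization (-0.14). Across genes, which are not independent replicates, the 2 differences correlated at r = 0.981. There were 44 rises of 45 again in the axoneme list (median 3.99), 35 of 41 in the acrosome list (4.20) and 11 falls of 17 in the synaptonemal complex list (-1.83). In Stra8, Dazl, Tcte1 and Ccna1 the trisomic differences were -6.08, -6.54, 6.43 and 5.92. The X score of the trisomic arrays ran from -1.76 to -1.12 in pre-mid-pachytene spermatocytes and from -3.24 to -3.08 in spermatids.

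**Figure D5:**
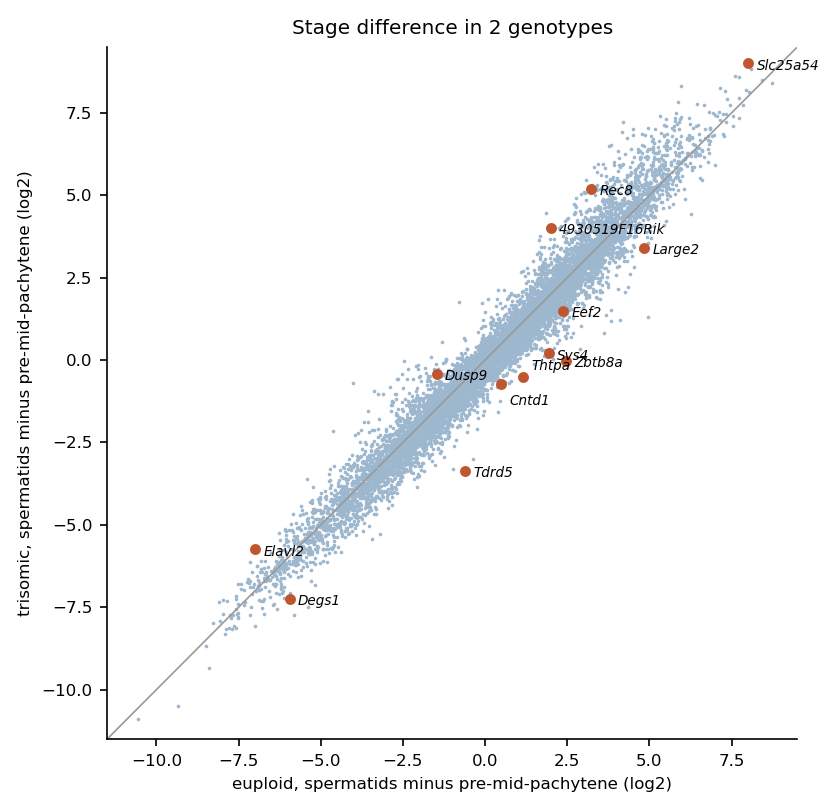
Stage difference (log2, spermatids minus pre-mid-pachytene spermatocytes) of the 9266 tested genes in euploid arrays (horizontal) and in trisomic arrays (vertical), with the line of equal differences; the 13 named genes that passed the test of the difference between genotypes are orange. Most genes lie along the line (r = 0.981).

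The stage difference itself differed between genotypes in 92 genes (0.993%), of which 57 had the higher difference in euploid arrays. Fitted on the 12 arrays of these stages alone, 21 passed, and without euploid pre-mid-pachytene replicate 2 the number was 264. Large2, a glycosyltransferase, rose from 2.15, 2.09 and 2.11 to 7.21, 6.86 and 6.79 in euploid arrays, a difference of 4.84, against 3.42 in trisomic ones (interaction 1.42 ± 0.11, limma adjusted p = 6.25e-06). Thtpa, a thiamine triphosphatase, rose by 1.15 in euploid arrays and fell by 0.50 in trisomic ones (interaction 1.66 ± 0.22, adjusted p = 0.00307). Tdrd5, a Tudor protein of the piRNA pathway, stood at 7.81, 8.10 and 7.98 and at 6.75, 7.07 and 8.27 without passing in euploid arrays, and fell by 3.37 in trisomic ones (interaction 2.76 ± 0.49, adjusted p = 0.0172). Rec8 rose further in trisomic arrays (5.21) than in euploid ones (3.23), with an interaction of -1.98 ± 0.43 (adjusted p = 0.0392) that held in 1 of 8 alternative fits.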

How the data were processed

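The authors deposited log2 intensities for each probe set, computed with GCRMA per the submitters' processing notes; its version and which arrays were normalized together are not given in the sources used here. The table held 16539 probe sets on 22 arrays. Of these, 15780 carried 1 gene symbol each and 759 none, among them 64 controls. Chromosomes came from a GRCm38.p6 gene table that placed 15752 genes. Array medians were 4.10 to 4.69.

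The model of limma was fitted on all 22 arrays with a mean for each of 8 groups, in version 3.58.1 under R 4.3.3, with python 3.11.15, pandas 2.3.3, numpy 2.4.6 and matplotlib 3.10.9 for other steps. Tests were two-sided with Benjamini-Hochberg adjustment at 0.05 over the genes that reached 4 on average in either euploid group. The total degrees of freedom, residual plus limma's prior, were 15.1. On simulated data with 9266 genes, 59% of 100 genes changed by 1 and 96% of 100 changed by 2 (log2) were recovered, with 8 false calls. Only these genes were changed there, whereas 85.7% of the tested genes were called on the arrays. The adjustment depends on this share, so the values do not give the recovery in the main fit, which was not tested. The X score was compared by an exact permutation test. Lists were described by counts and medians, with no list test.

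The members, the 40 lists and the naming rule were chosen with earlier results of these data known. The rule names the 12 largest rises and falls, the 8 largest at 4 or more in both groups, up to 6 called members of each list and direction with up to 3 that missed, pairs with both members tested, the X and Y genes with the largest differences, the lowest interaction p-values and the genes with the middle farthest from both ends. Other members of a list that are named with a value were chosen after their values were seen. Alternatives were other filters, quantile normalization, autosomal centring, subsets of arrays, a trend and robust spread, a replicate block and leaving out each array.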

Additional observations from a re-analysis of the deposited data

Results flagged for a closer look

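In 13 of the named genes the stage difference (spermatids minus pre-mid-pachytene spermatocytes) of the euploid arrays differed from that of the trisomic arrays by limma's interaction test. The euploid minus trisomic values were 1.42 for Large2, -1.06 for Dusp9, 1.73 for Svs4, 1.66 for Thtpa, -2.02 for 4930519F16Rik, 1.3 for Degs1 and 2.48 for Zbtb8a. They were 2.76 for Tdrd5, -1.0 for Slc25a54, -1.25 for Elavl2, 0.89 for Eef2, -1.98 for Rec8 and 1.24 for Cntd1. Dusp9, an X-linked phosphatase, fell by 1.47 in euploid and by 0.41 in trisomic arrays, and Svs4 rose by 1.94 in euploid arrays against a difference of 0.21 in trisomic ones. Zbtb8a had differences of 2.45 and -0.02, and 4930519F16Rik of 2.00 and 4.01. Elavl2 fell by 7.0 and by 5.75, and Degs1, a sphingolipid desaturase, by 5.95 and by 7.24. Over the 8 alternative fits of the interaction, Large2, Dusp9, Svs4 and Thtpa passed in all 8, 4930519F16Rik, Degs1, Elavl2, Tdrd5 and Zbtb8a in 7, Slc25a54 in 6, Eef2 in 4, Cntd1 in 3 and Rec8 in 1.

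Probe sets without a gene name, which the comparisons above do not use, were tested apart, out of 695 that are not controls. Of the 347 tested 293 changed, 151 higher and 142 lower in spermatids. This is near the share of the named genes, 7938 of 9266 (85.7%), and so shows nothing particular to these probe sets.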

How the results depend on the processing

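The number of genes that changed between the ends of the path, 7938, was 6168 to 8416 under the other filters, scalings, fits and subsets of arrays, and 7710 to 7856 without 1 array of the 6. It was 5598 for a tested minimum difference of 1. With a replicate block it was 7901 on all 22 arrays and 7418 on the 6. Deviations of arrays with the same number correlated at 0.05, -0.07 and 0.04, so the numbers gave no pairing. The trisomic count of 7878 was 7618 to 7710 without 1 array and 7859 with the block. Quantile normalization kept the call of 7293 of 7878 shared genes, lost 522 and turned 63. It lowered the share of rises among called genes from 56.4% to 51.3%. The cause was not tested.

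The 92 genes whose stage difference differed between genotypes became 21 on the 12 arrays alone and 49 with the replicate block, and ranged from 73 to 264 without 1 euploid array. The X score difference of -1.91 was -1.60 for a mean of at least 6, -0.54 with no filter, -1.65 with means over genes and -1.62 after quantile normalization, and ran from -2.01 to -1.82 without 1 array. Of 461 named genes 397 were called, 394 of which kept their direction in every alternative run. Quantile normalization turned 11: Cep83 (-0.69), Cntd1 (-0.14), Ddx4 (-0.40), Hsf2bp (-0.47), Ndufs1 (-0.57), Papola (-0.13), Pfn2 (-0.60), Psmc3ip (-0.31), Psmd12 (-0.65), Psmd2 (-0.71) and Slc25a3 (-0.92). In at least 1 alternative 36 called genes were lost, 18 of them on leaving out 1 array. Of the named genes that were not called, 47 were called in at least 1 alternative. Taking each probe set on its own gave the same values, since every named gene has 1 probe set. Low signal limits genes near background, whose differences depend on the method's floor.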

Other observations

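Genes of apoptosis and the p53 pathway fell in 10 of 21 tested cases and rose in 4, with a median difference of -0.70 (spermatids minus pre-mid-pachytene spermatocytes, log2). Of all tested genes 37.3% fell and 48.3% rose, with a median of 0.38. Aifm1, the X-linked apoptosis-inducing factor of mitochondria, stood at 9.90, 10.12 and 9.97 and then at 3.40, 3.41 and 3.50 (-6.56 ± 0.16, limma adjusted p = 9.22e-15). Pmaip1, the BH3 protein NOXA, fell by 5.06 and Casp2 by 4.12. Bcl2l14, of the BCL2 family, rose from 6.91, 7.25 and 6.80 to 11.64, 11.61 and 12.02 (4.77 ± 0.26), and Mdm4, a p53 inhibitor, rose by 2.75. The arrays of the ends did not overlap in any of these 5 genes, as in 86.5% of all tested genes.

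Actin-related, tubulin and perinuclear theca genes rose in 23 of 37 cases and fell in 8 (median 1.29), against 48.3% and 37.3% of all tested genes. Lmnb2, a lamin, rose from 6.10, 7.08 and 6.86 to 11.69, 11.51 and 12.07 (5.07 ± 0.44, limma adjusted p = 2.08e-08), and Actl7b, a testis actin-like protein, by 3.84. Vim, an intermediate filament protein that Sertoli cells also express, fell by 3.52, on arrays where the Sertoli cell markers fell. Of 11 immediate early genes, whose levels can shift while cells are sorted, 3 rose and 4 fell. Klf2 rose by 5.43 and Nr4a1 by 3.72, and Egr1 fell by 2.13.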
